A study of Mus musculus with 9 samples.

Results

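The protein kinase C isoforms were taken as 8 genes, Prkca, Prkcb, Prkcd, Prkce, Prkch, Prkcq, Prkci and Prkcz, with every probe set that the deposited annotation assigns to 1 of these symbols alone. They held 20 of 45037 probe sets and 8 of 18193 genes. The family was selected on 1 measured value, the high level of Prkcq in C4 cultures, so Prkcq in C4 is given as a description with no test. The arrays measured RNA of adult olfactory bulb stem cells (aOBSCs), mouse neural stem cells of the olfactory bulb that were grown as floating spheres (neurospheres). FGF-2 and EGF, the growth factors that keep these cells dividing, were added every day in control (Ctr) cultures, every 2 days in C2 cultures and every 4 days in C4 cultures. All cultures received 20 ng/ml of each factor at every addition, were kept in their regime for 2 passages and were collected after 7 days, so that the last addition lay 1 day back in C2 and 3 days back in C4. Each condition had 3 arrays, which the design text calls biological replicates. The cells came from CD1 or C57Bl/6 mice, and the legend on the arrays names ages of 7 and 15 months, but the sources used here do not say which array came from which strain or age. The spheres were not sorted, so a change in the share of a cell type and a change in RNA per cell cannot be told apart.

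Protein kinase C phosphorylates serine and threonine residues and passes on signals from growth factor and G protein-coupled receptors. These receptors activate phospholipase C, which splits a membrane lipid into diacylglycerol and a messenger that releases calcium. The conventional isoforms (cPKC), alpha from Prkca and beta from Prkcb, need both diacylglycerol and calcium. Delta (Prkcd), epsilon (Prkce), eta (Prkch) and theta (Prkcq) form the nPKC group, which needs diacylglycerol but no calcium. The atypical isoforms (aPKC), iota (Prkci) and zeta (Prkcz), respond to neither and work with the Par polarity proteins, which in neural progenitors set up the apical side of the cell. Theta is best known from T cells, where it links the antigen receptor to NF-kappa-B, and from skeletal muscle.

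Promoters of the 3 isoforms with the main differences are shown, so that the start regions of genes with different profiles can be read side by side. They come from RefSeq on GRCm38.p6, run 5′ to 3′ on the gene's strand and hold 250 bases before and 50 bases after the annotated start. Capitals mark GGGCGG or its complement CCGCCC, the letters bound by Sp1. The Prkcq promoter lies at chr2:11172132-11172431 on the + strand, that of Prkca at chr11:108343839-108344138 on the - strand and that of Prkcb at chr7:122288875-122289174 on the + strand.
Prkcq: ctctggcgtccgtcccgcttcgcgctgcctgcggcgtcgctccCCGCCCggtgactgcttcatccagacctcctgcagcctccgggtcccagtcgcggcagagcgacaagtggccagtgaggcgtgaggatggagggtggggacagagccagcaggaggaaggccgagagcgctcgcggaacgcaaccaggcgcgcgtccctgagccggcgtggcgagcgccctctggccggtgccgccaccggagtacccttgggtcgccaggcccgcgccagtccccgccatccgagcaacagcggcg
Prkca: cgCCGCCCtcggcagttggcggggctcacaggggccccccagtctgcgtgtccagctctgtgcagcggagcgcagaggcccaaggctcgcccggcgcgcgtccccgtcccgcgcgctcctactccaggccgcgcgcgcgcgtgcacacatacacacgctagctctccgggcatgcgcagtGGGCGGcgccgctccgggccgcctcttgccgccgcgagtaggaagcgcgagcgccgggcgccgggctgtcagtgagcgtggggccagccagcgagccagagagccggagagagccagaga
Prkcb: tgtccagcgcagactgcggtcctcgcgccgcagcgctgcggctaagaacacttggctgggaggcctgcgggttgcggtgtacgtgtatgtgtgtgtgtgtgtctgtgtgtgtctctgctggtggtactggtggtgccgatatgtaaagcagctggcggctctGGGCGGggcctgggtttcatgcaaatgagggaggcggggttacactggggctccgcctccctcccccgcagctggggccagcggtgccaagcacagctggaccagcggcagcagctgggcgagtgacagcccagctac
The Prkcq window had 73.0% G and C with 37 CpG dinucleotides, the Prkca window 75.3% with 42 and the Prkcb window 65.3% with 19, against a median of 7 CpG over 32851 promoters. Each was thus richer in CpG than the median promoter. The Sp1 letters, searched on both strands, occurred 1 time in Prkcq, 2 times in Prkca and 1 time in Prkcb, and 35.7% of all promoters held them. None of the 3 windows held GTAAACA (FOXO factors; in 3.6% of promoters), TGANTCA (AP-1; 7.8%), TATAAA (the TATA box; 13.6%) or CACGTG (an E-box; 7.2%) on either strand. A match is a description of letters and not a binding site. Of the 8 isoforms, 6 had a promoter in the table, and Prkce and Prkch are named only.

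Values are log2 GCRMA levels as deposited, between 2.27, the lowest value of the table, and 15.25. On each array 34.81% to 35.80% of probe sets stood at that lowest value. Arrays of the same condition correlated at 0.99769 to 0.99878 over probe sets, and no array stood apart. The neural stem cell markers Sox2, Nes, Pax6, Fabp7, Msi1 and Vim were all over 4 on every array. A level of 4 is used here as the line above which a probe set is called detected, and where a gene has several probe sets, the one with the highest mean (its representative) stands for it. Levels of different probe sets are not compared with each other, because probes differ in brightness. Differences were tested with limma over all 45037 probe sets with Benjamini-Hochberg adjustment, and a gene or probe set is called where the adjusted p was under 0.05. How many of all probe sets had conditions without overlapping arrays was not counted, so statements on overlap are descriptions.

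Of the 20 probe sets, 9 reached a mean of 4 in at least 1 condition, and these belonged to Prkca, Prkcb, Prkce, Prkci and Prkcq. Prkcd, Prkch and Prkcz had no array over 4. Prkcq had the largest C4 minus Ctr difference of the family and was the only isoform that differed by 1 or more on the log2 scale. Prkca was higher and Prkcb lower in C4 than in C2, each by less than 0.5, and Prkce and Prkci did not pass the test in any comparison. The isoforms therefore did not move together.

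**Figure D1:**
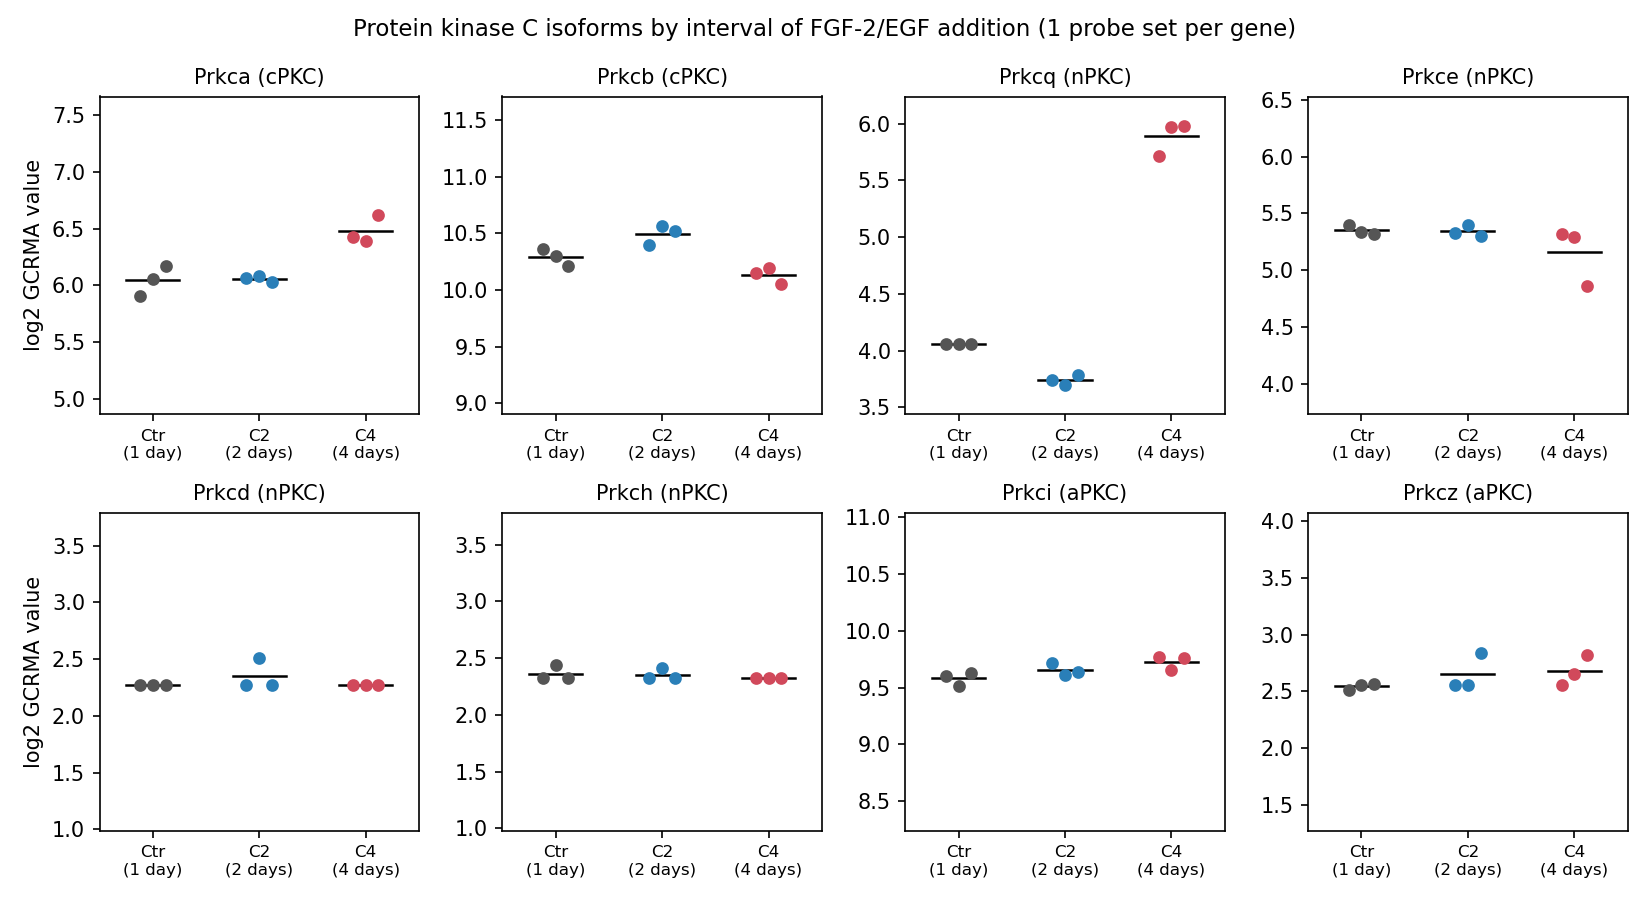
Log2 GCRMA value of the representative probe set of each isoform on the 3 arrays of each condition, with the interval of FGF-2/EGF addition on the x axis. Points are arrays, bars are condition means, and each y axis spans 2.8 log2 units around its own centre, so that step sizes but not heights compare between panels. The 3 C4 arrays of Prkcq sit between 5.72 and 5.98, and Prkcd, Prkch and Prkcz lie near the lowest value.

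Prkcq (Entrez gene 18761), the gene of PKC-theta, was measured by a single probe set. It stood at 4.06, 4.06 and 4.06 on the Ctr arrays, at 3.74, 3.70 and 3.79 on the C2 arrays and at 5.72, 5.97 and 5.98 on the C4 arrays. All C4 arrays lay above all others, and all C2 arrays lay below the Ctr arrays. The mean ± SD of 3 arrays was 4.06 for Ctr, 3.74 ± 0.0495 for C2 and 5.89 ± 0.147 for C4. The C4 minus Ctr difference was 1.83, a 3.57-fold higher level, which ranked 9 among 18193 genes. Leaving out each array in turn gave 1.79 to 1.92. C4 exceeded C2 by 2.15. These differences include the values for which the family was picked. They also start from a low base: Ctr lay just over the detection line of 4, and all C2 arrays lay under it. Low levels are compressed by the processing, so the size of the fold is uncertain.

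The Ctr level of Prkcq was the same to the last deposited decimal on all 3 arrays. Such ties were common in this table. Among probe sets that varied over the arrays, 7641 had 1 value on the 3 Ctr arrays, 6609 on the C2 arrays and 6618 on the C4 arrays, and of 2341 such probe sets with a Ctr mean between 3.5 and 4.5, 373 were tied in Ctr. The SD of Prkcq in Ctr was therefore 0. C2 minus Ctr was -0.31 (SE 0.073, 95% interval -0.49 to -0.14). This difference shares its Ctr arrays with the C4 rise used to choose the family, so it is not independent of that choice. It did not pass in limma with Benjamini-Hochberg adjustment (adjusted p = 0.122), although all 3 C2 arrays were lower. The same difference passed after quantile normalisation (adjusted p = 0.0366), with a filter on dim probe sets (0.0443), with only the C2 and Ctr arrays (0.0387) and without C4 replicate 1 (0.0218). The call for C2 therefore depends on the processing.

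Markers of other cell types were read beside Prkcq. Of all 9347 genes with a mean of at least 4, 17.5% were called in C4 against Ctr and 4.78% in C2 against Ctr, in either direction. No marker list was tested against these shares. Lymphocyte markers, of the cells in which theta is best known, had 0 of 7 measured genes over 4, with summed log2 levels of 17.40 to 17.62 in Ctr, 17.40 in all C2 arrays and 17.40 to 18.37 in C4. Cd3g and Ptprc stood at the lowest value on every array. Markers of skeletal muscle (0 of 4), platelets (0 of 3), microglia (0 of 5) and endothelial cells (0 of 3) were not over 4 either. The summed markers of the oligodendrocyte lineage were highest in C4 and lowest in C2, the order also seen in Prkcq. Their sum over 5 measured genes was 20.57 to 20.84 in Ctr, 17.94 to 18.98 in C2 and 24.24 to 25.67 in C4, and 3 of them, Pdgfra, Cspg4 and Gpr17, were called higher in C4 than in Ctr. Gpr17, a receptor of immature oligodendrocytes, was also called lower in C2, its means being 4.83 for Ctr, 3.12 for C2 and 7.53 for C4, while the myelin genes Mbp and Mog were near the lowest value. By RT-qPCR of aOBSC cultures, the paper reports Gpr17 as upregulated in C2 against controls, the direction opposite to these arrays. No other gene of this list was called in C2 against Ctr, where Pdgfra differed by -0.39 (limma adjusted p = 0.461) and Cspg4 by -0.14 (adjusted p = 0.735). Astrocyte markers summed to 24.43 to 24.64 in Ctr, 23.78 to 24.93 in C2 and 27.35 to 27.67 in C4, with Aqp4, S100b and Aldh1l1 called higher in C4 and Gfap just under 4 on average. In C2 against Ctr this list went both ways. Aldh1l1 was called lower and Aqp4 differed by -0.45 (limma adjusted p = 0.12), while S100b differed by 0.57 (adjusted p = 0.0845) and Gfap by 0.30 (adjusted p = 0.735). The neuronal list summed to 13.30 to 14.06, 13.07 to 13.46 and 11.68 to 11.89 in the same order, and its one detected gene, Calb1, was called lower in C4. Of the neural stem cell markers, Pax6 (difference 0.57, adjusted p = 0.00241) and Fabp7 (0.34, adjusted p = 6.65e-04) were called higher and Vim (-0.40, adjusted p = 0.0256) lower in C4 than in Ctr by limma, and the list summed to 60.90 to 61.23 in Ctr, 60.76 to 61.13 in C2 and 61.73 to 62.54 in C4. The paper describes Sox2 and Pax6 as similar between the conditions. It used a minimum difference of 1 on the log2 scale, which the Pax6 difference does not reach. The part of these cell types in the Prkcq values was not tested.

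The genes whose profile was most like that of Prkcq were sought among 782 detected genes that varied by at least 1 over the 9 arrays. Pearson's r with Prkcq was at least 0.95 for 93 of them and at least 0.99 for 9. The 6 most alike were Cmtm5 (r = 0.9984), Grm3 (0.9956), Sh3bp4 (0.9949), Tst (0.9947), Id4 (0.9928) and Pde2a (0.9917). The 9 points come from 3 conditions and share their libraries with Prkcq, so these values are a description. Cmtm5, a membrane protein of the chemokine-like factor family, averaged 4.07 ± 0.0625 for Ctr, 3.71 ± 0.13 for C2 and 6.25 ± 0.145 for C4 (SD of 3 arrays). Grm3, a metabotropic glutamate receptor of glial cells, averaged 6.89 ± 0.0253, 6.70 ± 0.127 and 8.94 ± 0.14 in the same order. Id4, an inhibitor of basic helix-loop-helix factors, averaged 6.48 ± 0.0222, 6.39 ± 0.0932 and 7.94 ± 0.218. In each of the 6 genes the C2 mean was below the Ctr mean, by 0.08 in Pde2a to 0.36 in Cmtm5. Picking genes by likeness to Prkcq over these same arrays favours this order, so it is no separate result.

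**Figure D2:**
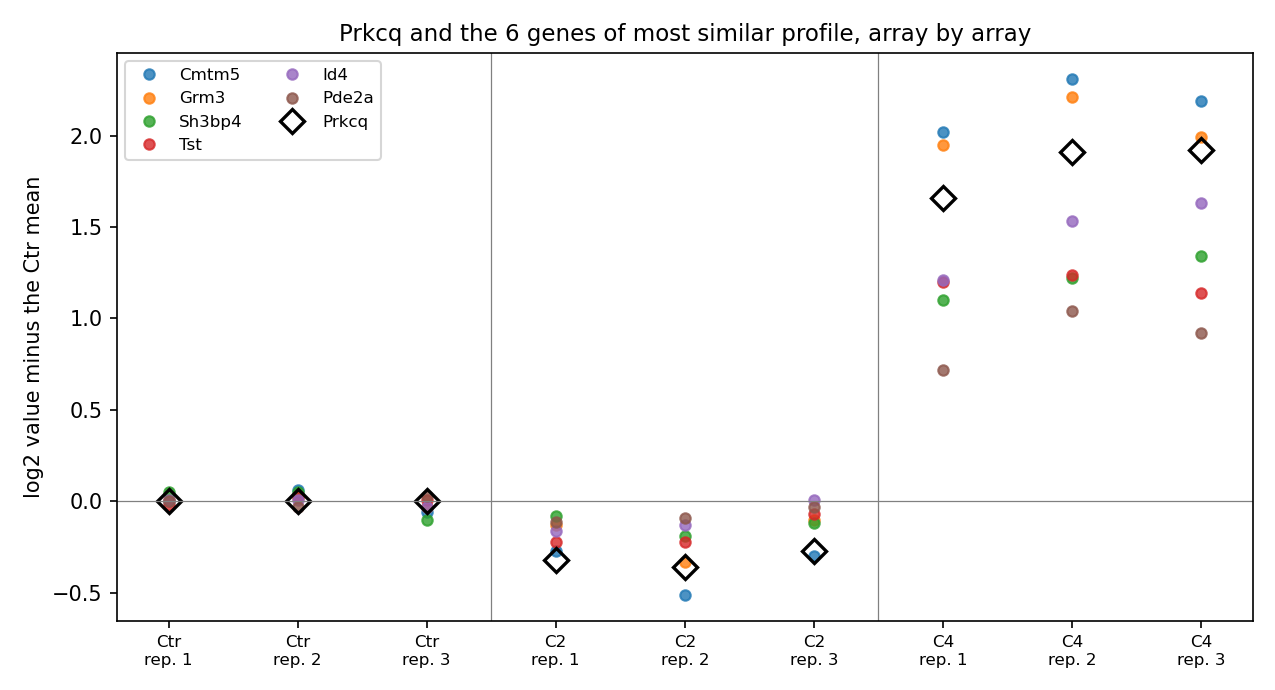
Log2 value minus the Ctr mean (y axis) on each of the 9 arrays (x axis) for Prkcq (open diamonds) and the 6 genes with the highest correlation to it (coloured points). The C4 arrays are above 0.5 in every gene, and the C2 arrays lie near or below 0.

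Prkca (Entrez gene 18750), the gene of PKC-alpha, had 3 probe sets. Its representative stood at 5.91, 6.06 and 6.17 on the Ctr arrays, at 6.07, 6.08 and 6.03 on the C2 arrays and at 6.43, 6.39 and 6.62 on the C4 arrays. All C4 arrays lay above all Ctr and C2 arrays, while C2 overlapped Ctr. The mean ± SD of 3 arrays was 6.05 ± 0.128 for Ctr, 6.06 ± 0.0258 for C2 and 6.48 ± 0.123 for C4. In C4 Prkca was higher than in Ctr by 0.43 (SE 0.0815, limma adjusted p = 0.0281) and higher than in C2 by 0.42 (adjusted p = 0.0349), whereas C2 differed from Ctr by 0.01 (95% interval -0.18 to 0.21, adjusted p = 1). The second probe set gave 5.29, 5.67 and 5.49 in C4 and 5.29, 5.30 and 5.19 in Ctr, a difference of 0.22 that did not pass (adjusted p = 0.308), and the C4 minus C2 difference was 0.22 too (adjusted p = 0.366). The third probe set stayed between 2.38 and 2.49.

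The calls of Prkca lay close to the threshold. Against Ctr the limma adjusted p was 0.0676 without Ctr replicate 1, 0.0907 without Ctr replicate 2, 0.0588, 0.0596 and 0.0562 without C2 replicate 1, 2 or 3, 0.0576 without C4 replicate 1, 0.0512 without C4 replicate 2 and 0.0569 without C4 replicate 3, and the call was kept without Ctr replicate 3 (0.0302). Against C2 it was lost without Ctr replicate 2 (0.0738), each C2 replicate (0.107, 0.104 and 0.112) and each C4 replicate (0.0713, 0.0572 and 0.0712). In the fit with replicate numbers as a block, the adjusted p was 0.0536 against Ctr and 0.0644 against C2, with a robust variance prior 0.12 and 0.148, and with only the arrays of both conditions 0.12 and 0.0624. Over all arrays left out, the difference stayed between 0.36 and 0.50 against Ctr and between 0.35 and 0.47 against C2.

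Prkcb (Entrez gene 18751), the gene of PKC-beta, had 2 detected probe sets whose values correlated at 0.91 over the 9 arrays. The representative stood at 10.36, 10.30 and 10.21 on the Ctr arrays, at 10.40, 10.56 and 10.52 on the C2 arrays and at 10.15, 10.19 and 10.05 on the C4 arrays. The second probe set gave 9.39, 9.35 and 9.34 in Ctr, 9.55, 9.67 and 9.66 in C2, and 9.05, 9.16 and 9.23 in C4. Both probe sets thus had C2 highest, Ctr between and C4 lowest. In neither probe set did the C4 arrays overlap the C2 or the Ctr arrays, nor the C2 arrays the Ctr arrays. The gaps of the representative to Ctr were narrow, from 10.19 in C4 to 10.21 in Ctr and from 10.36 in Ctr to 10.40 in C2. Prkcb was lower in C4 than in C2, by -0.37 in the representative (limma adjusted p = 0.0193) and -0.48 in the second probe set (adjusted p = 0.00442). C4 minus Ctr was -0.16 (SE 0.0608, adjusted p = 0.269) and -0.21 (SE 0.0536, adjusted p = 0.0784), and C2 minus Ctr was 0.21 (adjusted p = 0.226) and 0.27 (adjusted p = 0.0786), none of which passed. In the second probe set C4 against Ctr passed with median centring (adjusted p = 0.0131) and with the dim filter (0.0225), and C2 against Ctr with the dim filter (0.02). The C4 against C2 call of the representative was lost without C2 replicate 2 (adjusted p = 0.0722), C2 replicate 3 (0.0709), C4 replicate 1 (0.0552) or C4 replicate 3 (0.0571) and with the replicate block (0.0557), a robust prior (0.0606) or only the arrays of both conditions (0.0647). That of the second probe set held without each of the 9 arrays (0.00639 to 0.0227) and under these settings (0.0194, 0.0221 and 0.0372). The third probe set stayed between 2.35 and 2.59.

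Prkce (Entrez gene 18754), the gene of PKC-epsilon, was the other detected member of the nPKC group. Its representative stood at 5.40, 5.34 and 5.32 on the Ctr arrays, at 5.33, 5.40 and 5.30 on the C2 arrays and at 5.32, 5.29 and 4.86 on the C4 arrays. C4 replicate 1 reached the lowest Ctr array, C4 replicate 2 lay just under it, and C4 replicate 3 was the lowest of all, with a C4 mean of 5.15 ± 0.257. C4 minus Ctr was -0.20 (95% interval -0.48 to 0.09, limma adjusted p = 0.617), and -0.05 without that array. The second probe set gave 5.06, 4.72 and 4.72 in Ctr, 4.99, 5.01 and 4.90 in C2, and 4.34, 4.72 and 4.34 in C4, so that C4 lay below C2 on all arrays, by -0.51 on average (adjusted p = 0.116), and differed from Ctr by -0.37 (adjusted p = 0.249). Prkcd (Entrez gene 18753) was at the lowest value except for 2.51 on C2 replicate 2 in 1 of its 2 probe sets, and Prkch (Entrez gene 18755) stayed between 2.32 and 2.44. At these levels no difference was detectable.

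Of the atypical isoforms, Prkci (Entrez gene 18759), the gene of PKC-iota, was detected by both of its probe sets and Prkcz (Entrez gene 18762) by none of 3. The Prkci representative stood at 9.60, 9.51 and 9.63 on the Ctr arrays, at 9.72, 9.61 and 9.64 on the C2 arrays and at 9.77, 9.65 and 9.76 on the C4 arrays. C4 lay above Ctr on all arrays by 0.14 (SE 0.0494, 95% interval 0.02 to 0.26), which did not pass (limma adjusted p = 0.213). The second probe set was more scattered, with 5.99, 6.57 and 6.51 in Ctr, 6.51, 6.16 and 6.55 in C2, and 6.92, 6.79 and 6.69 in C4, and its C4 minus Ctr difference of 0.45 did not pass either (SE 0.18, adjusted p = 0.297). The detected Prkci and Prkce representatives are of a probe set type that can match transcripts of more than one gene, and their second probe sets are not. Prkcz stayed between 2.51 and 2.84 in 1 probe set and at the lowest value in the others.

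**Figure D3:**
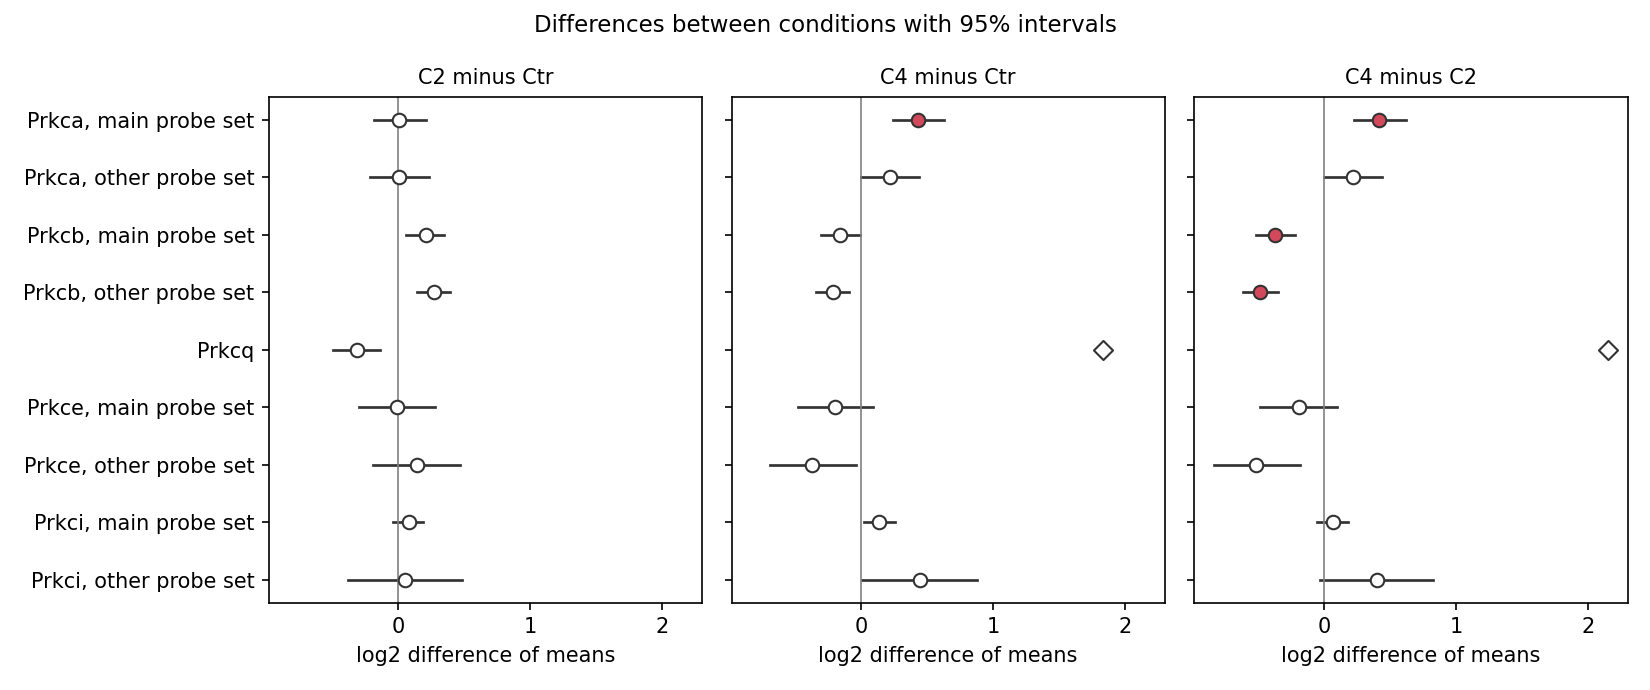
Log2 difference between condition means (x axis) for the 9 detected probe sets (y axis) in C2 against Ctr, C4 against Ctr and C4 against C2. Lines are 95% intervals of the limma fit, filled points passed at an adjusted p under 0.05, and open diamonds are the Prkcq values given with no test. Prkca was called higher and both Prkcb probe sets lower in C4 than in C2, and no isoform was called in C2 against Ctr.

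In C4 against Ctr, 1 of the other 7 isoforms was called higher and 0 lower, at an overall share of 5.65% of all genes called higher and 3.55% lower, or 17.5% in either direction among the 9347 genes with a mean of at least 4. In C4 against C2, 1 was called higher and 1 lower, where 4.29% of genes were higher and 3.49% lower, or 14.8% of genes with a mean of at least 4. In C2 against Ctr, limma called 0 of 8 isoforms and 2, Prkcb and Prkcq, were at an unadjusted p under 0.05, where 1.67% of genes were higher and 0.846% lower, or 4.78% of those with a mean of at least 4. Counts this small do not set the family apart from the background. Without Prkcq, the median difference of the 7 isoforms was 0.00 in C4 against Ctr, 0.08 in C2 against Ctr and -0.03 in C4 against C2. That of all genes was 0.00 in each comparison, and that of genes with a mean of at least 4 was 0.05, 0.02 and 0.02 in the same order. The comparisons with Ctr share the Ctr arrays.

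Over the 9 arrays, as a description of 3 conditions, the profile of Prkca correlated with that of Prkcq at 0.91 and with that of Prkcb at -0.80, and Prkcb correlated with Prkcq at -0.82. Prkce correlated with Prkcq at -0.61 and Prkci at 0.55. The points are not independent, since each condition holds 3 of them.

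The genes around protein kinase C were read from 9 lists with 76 measured genes. In C4 against Ctr 11 of them were called, 6 higher and 5 lower. In C4 against C2 it was 7 higher and 2 lower, and in C2 against Ctr 1 higher and 2 lower. All calls fell among the 52 genes with a mean of at least 4, of which 21.2% were called in C4 against Ctr, 17.3% in C4 against C2 and 5.77% in C2 against Ctr. Over all genes at that level the shares were 17.5%, 14.8% and 4.78%, so the lists as a whole lay near the background, and no single list is set apart from it here. The median difference of the 76 genes was 0.00 in each comparison.

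Among 16 producers of diacylglycerol and their relatives, 11 detected, 2 were called higher in C4 than in Ctr and 1 lower, at a background of 17.5% for genes with a mean of at least 4. Pld1, a phospholipase D whose product is converted to diacylglycerol, averaged 9.03 ± 0.136 in C4 and 8.41 ± 0.0739 in Ctr (SD, n = 3), a difference of 0.62 (limma adjusted p = 0.00516). Its other probe sets gave 0.51 (adjusted p = 0.109) and 0.47 (adjusted p = 0.0585). Plcd4, a phospholipase C of the delta class, averaged 9.17 ± 0.0586 in C4 and 8.72 ± 0.0898 in Ctr, a difference of 0.45 (adjusted p = 0.00374). Plcl2, a phospholipase C-like protein without known catalytic activity, was lower, with 6.24 ± 0.0226 in C4 and 6.87 ± 0.187 in Ctr, a difference of -0.63 (adjusted p = 0.0127). All 3 calls held without each of the 9 arrays. That of Plcl2 was lost with the replicate block (adjusted p = 0.0637) and with only the C4 and Ctr arrays (0.0572), and that of Pld1 when probe sets open to cross-hybridisation were left out (0.118). Of 7 diacylglycerol kinases, which remove the lipid, none was called in any comparison.

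Other receptors of diacylglycerol carry the same C1 domain as protein kinase C. Of 9, 5 were detected. Chn1, a Rac GTPase-activating protein, averaged 7.60 ± 0.072 in Ctr, 7.89 ± 0.0555 in C2 and 8.22 ± 0.0508 in C4 and was called higher in C4 than in Ctr, by 0.62 (limma adjusted p = 9.44e-04), and than in C2, by 0.33 (adjusted p = 0.0108). Rasgrp2, an activator of Rap1, was called lower, with 4.53 ± 0.0351 in C4 and 4.80 ± 0.0343 in Ctr (difference -0.27, adjusted p = 0.00405). Both C4 calls against Ctr held without each array in turn, but that of Rasgrp2 was lost with a robust prior (adjusted p = 0.207) and when its probe sets were averaged, which gave a difference of -0.07 (adjusted p = 0.146). The Chn1 call against C2 was lost with the robust prior (adjusted p = 0.0892). Their C2 calls against Ctr (Chn1 0.29, adjusted p = 0.0431; Rasgrp2 -0.22, adjusted p = 0.0256) held for 1 and 4 of the 9 arrays left out, with adjusted p up to 0.145 and 0.0877, and were lost with the replicate block (0.106 and 0.0871). Among related kinases, Prkd1, a protein kinase D that PKC activates, was lower in C4 by -0.26 (adjusted p = 0.0342). Its second probe set differed by -0.12 (adjusted p = 0.449), and the call was kept for 1 of the 9 arrays left out (adjusted p up to 0.113) and lost with the block (0.066), the robust prior (0.12) and only the C4 and Ctr arrays (0.118).

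Newly made PKC is primed by PDK1 and mTORC2 with the help of Hsp90 and is switched off by PHLPP phosphatases. All 9 measured genes of this list were detected, and their median C4 minus Ctr difference was 0.15. Phlpp1 was higher in C4 by 0.39 (limma adjusted p = 0.0188), with 9.94 ± 0.108 in C4 and 9.55 ± 0.0265 in Ctr, a call that held for 5 of the 9 arrays left out (adjusted p up to 0.0748) and was lost with the robust prior (0.0587) and with only the C4 and Ctr arrays (0.0524). Mlst8, a subunit of the mTOR complexes, was higher by 0.87 (adjusted p = 0.027) with 6.15 ± 0.277 in C4 and 5.28 ± 0.137 in Ctr, and its call held for 3 of 9 (adjusted p up to 0.0943) and was lost with the block (0.102), the robust prior (0.0623), only the C4 and Ctr arrays (0.0865) and quantile normalisation (0.0509). The second Mlst8 probe set gave 0.62 and did not pass (limma adjusted p = 0.158). Hsp90aa1 was lower, with a difference of -0.30 (adjusted p = 0.00979) that held for all 9, while its other detected probe sets gave -0.15 (adjusted p = 0.257) and -0.32 (adjusted p = 0.0949). Pdpk1, the gene of PDK1, differed by -0.14 (adjusted p = 0.491), Mtor by 0.27 (adjusted p = 0.117) and Rictor by -0.13 (adjusted p = 0.957).

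Substrates of protein kinase C gave the smallest p of the lists. Gap43, a growth cone protein phosphorylated by PKC, averaged 9.46 ± 0.0433 in C4, against 10.25 ± 0.0205 in Ctr (difference -0.79, limma adjusted p = 2.41e-04), while its C2 mean was 10.24 ± 0.077. Marcks, an actin-binding membrane protein that leaves the membrane when phosphorylated, averaged 13.86 ± 0.0974 in C4 and 13.53 ± 0.0105 in Ctr (difference 0.34, adjusted p = 0.00875). Of its other detected probe sets, 3 were called higher as well (0.57, 0.46 and 0.82), and 2 of a type open to cross-hybridisation gave 0.03 and 0.08. Marcksl1, its relative, showed its difference in C2, with 9.70 ± 0.0255 in C2 and 10.39 ± 0.19 in Ctr (difference -0.69, adjusted p = 0.0243), and in C4 it was higher than in C2 by 0.57 (adjusted p = 0.0184). All 4 Marcksl1 probe sets are of types open to cross-hybridisation, and with a robust prior (0.0959) or only the C2 and Ctr arrays (0.093) the C2 call was lost. The C2 call of Marcksl1 held for 5 of the 9 arrays left out (adjusted p up to 0.0889), its C4 against C2 call for 3 (adjusted p up to 0.0716), and the C4 calls of Gap43 and Marcks against Ctr and C2 for all 9. With only the C4 and Ctr arrays the Marcks call was lost (0.0537).

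Of 8 partners of the atypical isoforms at the cell pole, Pard6b and Llgl2 were not detected and differed by 0.00. The 6 detected ones (Pard3, Pard3b, Pard6a, Pard6g, Cdc42 and Llgl1) each differed by 0.18 to 0.24 between C4 and Ctr, and none of them passed; Llgl1 was called higher in C4 than in C2 (0.41, limma adjusted p = 0.0116). Of 7 scaffolds and anchors none was called in any comparison. Of 6 effectors through which theta acts in lymphocytes only Bcl10 was detected, at 7.65 in C4 and 7.76 in Ctr (adjusted p = 0.632), and Malt1, the protease that works with it, stood at 3.33 in C4 and 3.31 in Ctr. Zap70 and Vav1, kinase and exchange factor of the antigen receptor, stayed under 3.

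**Figure D4:**
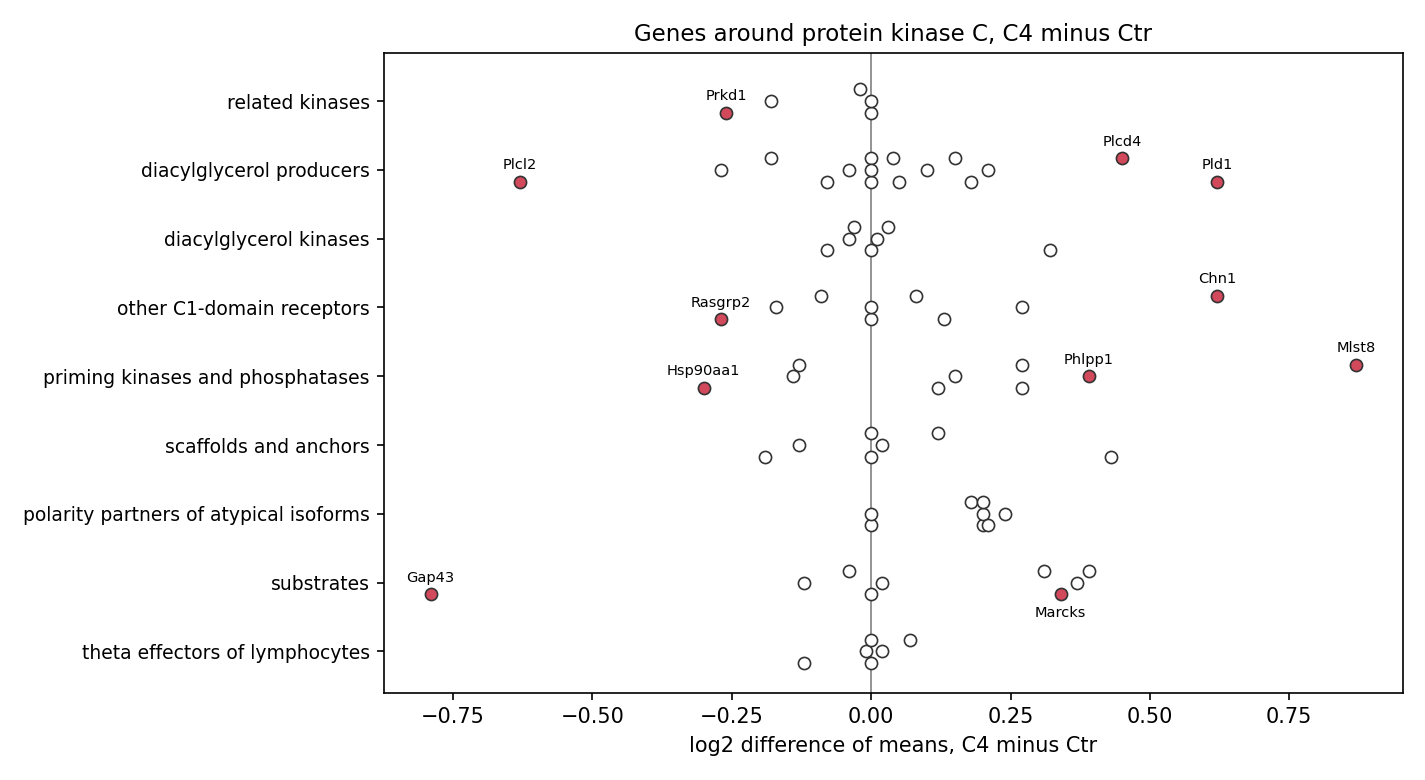
Log2 difference C4 minus Ctr (x axis) of 76 genes in 9 lists around protein kinase C (y axis). Each point is the representative probe set of a gene, filled and named where it was called at an adjusted p under 0.05. The 6 genes called higher lie between 0.34 and 0.87, and the 5 called lower between -0.79 and -0.26.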

How the data were processed

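RNA of aOBSC neurospheres was hybridised to Affymetrix GeneChips for the mouse genome, with 3 arrays for each of the conditions. The values used are the log2 values that the authors deposited: GCRMA corrects background by probe sequence, normalises by quantiles and summarises per probe set. Its version is not given in the sources used here, and the methods name Matlab functions for later steps. Low levels are compressed by this processing, so a probe set near the lowest value can hide a difference. The table has 45101 probe sets, and 64 of them, the array's controls, were dropped. Per the deposited annotation, 34945 probe sets carry 1 symbol, 932 several and 9160 none.

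Conditions were compared in limma (version 3.58.1, R version 4.3.3). The model had a mean for each condition and took in all 9 arrays, and its variance prior followed intensity (residual degrees of freedom 6, prior 0.574), and p-values were adjusted over 45037 probe sets. The methods give a minimum difference and, for genes taken on to qPCR, a limit on the false discovery rate, but not the test behind it. Nothing ties single arrays to separate animals, so a p-value covers the spread between these arrays only, and precision is limited by their number. The script was tested on simulated data. Of changes of 0.5 on the log2 scale put into C4, 26 of 67 were called against Ctr. For changes of 1 it was 52 of 67 and for changes of 2 it was 66 of 66, and 11 unchanged probe sets were called. A real difference of 0.5 or less can therefore fail to pass.

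Named genes are all isoforms, up to 3 called genes of each pathway list with the largest difference in C4 and any called in C2, and the 6 genes most like Prkcq. Members of the lists outside this rule were named after their values were seen: Pdpk1, Mtor, Rictor, Pard3, Pard3b, Pard6a, Pard6b, Pard6g, Cdc42, Llgl1, Llgl2, Bcl10, Malt1, Zap70 and Vav1. The isoforms and lists were chosen with earlier results of these data known. The alternatives were other normalisations, a filter on dim probe sets (over 4 on at least 3 arrays), other priors, only the arrays of the conditions compared, a replicate block, another choice of probe set per gene, a minimum difference of 1 and each array left out.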

Additional observations from a re-analysis of the deposited data

How the results depend on the processing

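The differences of the isoforms were computed in 474 combinations of gene, comparison and alternative, of which 439 counted as kept, 28 lost the call and 7 gained one. Kept means the same side of the threshold. The untested Prkcq differences in C4 counted as kept where direction held and the size moved by no more than the pooled SD within conditions. For the pathway genes named it was 557 of 645, with 82 lost and 6 gained. None of these calls turned its direction, and 32 differences that passed under neither setting changed sign and are among those counted as kept. The settings for pathway genes and for the second Prkcb probe set were added after seeing the data. In C4 against Ctr, the count of isoforms other than Prkcq (1) was 0 with a robust prior, with only the arrays of both conditions, with the replicate block and with a minimum difference of 1, and 0 to 1 with an array left out. The count of all probe sets (2833) was 4697 with the dim filter, 1386 with the robust prior, 1618 with only both conditions and 1818 to 2585 with an array left out. That of pathway genes (11) was 19, 7, 6 and 9 to 13 in the same order. In C2 against Ctr, the isoform count (0) was 1 after quantile normalisation, with the dim filter and with only both conditions, and 0 to 1 with an array left out. All probe sets (767) gave 1825 with the dim filter, 45 with the robust prior, 371 with only both conditions, 237 with the block and 323 to 584 with an array left out. Pathway genes (3) gave 7, 0, 0, 1 and 0 to 3 in the same order, and 1 after median centring. In C4 against C2, the isoform count (2) was 0 with the robust prior, only both conditions, the block and the minimum difference, and 0 to 2 with an array left out. All probe sets (2363) gave 3908 with the dim filter, 1178 with the robust prior, 1404 with only both conditions and 1485 to 2091 with an array left out. Pathway genes (9) gave 15 with the dim filter, 15 with the mean over probe sets and 7 to 11 with an array left out. The dim filter and the left-out arrays change the number of tests or samples; otherwise the cause was not tested. The mean over probe sets gives no count of all probe sets. The labels do not say whether arrays of the same replicate number were cultured together. Deviations of same-numbered arrays correlated at -0.04 to 0.13, which cannot settle whether they were. Differences near the lowest value are not resolved by these signals.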
